A study of Mus musculus with 4 samples.

Results

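The loci of 10 genes of cytokine receptor signalling were examined for binding of JunB, BATF, and IRF4 in activated mouse regulatory T (Treg) cells: the receptor chains *Il6st*, *Il6ra*, *Il12rb2*, *Il21r*, and *Il4ra*, the transcription factors *Stat3*, *Stat4*, and *Stat6*, and the inhibitors *Socs1* and *Socs3*. They were taken by name from 22238 protein-coding genes of the mm9 annotation, and a chromatin immunoprecipitation-sequencing (ChIP-seq) peak was counted for a gene when its centre lay within 50 kb of any annotated transcription start site (TSS) of that gene. By this rule the loci held 59 of 29659 JunB peaks, 32 of 13570 BATF peaks, 61 of 31093 IRF4 peaks from *Junb*-sufficient cells, and 63 of 29033 IRF4 peaks from *Junb*-deficient cells. A peak near both *Il4ra* and *Il21r*, whose windows overlap, was counted once in these totals.

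Cytokines such as IL-6, IL-12, IL-21, and IL-4 bind receptor chains on the cell surface, receptor-bound Janus kinases then phosphorylate STAT proteins, and STAT dimers enter the nucleus and activate genes. SOCS proteins are induced by this signal and shut it down again. In T cells the pathway directs the choice between helper lineages, and Treg cells depend on it for their response to IL-2 and for their ability to restrain particular helper responses. JunB pairs with BATF to form an AP-1 dimer that binds the AP-1 motif, and the dimer binds together with IRF4 at composite elements known as AICE, in which an AP-1 motif lies beside a short IRF motif.

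CD4+CD25+ Treg cells from spleens of C57BL/6 mice were cultured for 60 h with antibodies to CD3 and CD28 and with IL-2 before crosslinking. Each of 4 conditions had 1 library. *Junb*-sufficient cells were precipitated with antibodies to JunB, to BATF, and to IRF4, and *Junb*-deficient cells with the antibody to IRF4. By the study's methods the sufficient cells carried floxed *Junb* alleles without Cre (*Junb* fl/fl) and the deficient cells the same alleles with *Cd4*-Cre, so that Cre driven by *Cd4* deletes *Junb* in all T cells and not in Treg cells alone. The labels give Foxp3cre JUNB+/+ and Foxp3cre JUNBFl/Fl instead. The labels also name the antibodies to BATF and IRF4 in the reverse of the sample titles for the sufficient cells, and the titles were followed.

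With 1 library per condition, no difference between genotypes could be tested, and a peak is called listed or not listed. The score of every peak was 1, so the lists carry no strength per peak. The only hint of strength was the place of a peak in its list, whose order the headers do not name. Of the *Junb*-sufficient IRF4 peaks in the first 10% of the list, 94.95% overlapped a *Junb*-deficient IRF4 peak, and in the last 10% of it 32.1%. Peaks were grouped in runs sorted by position, and within such a run, at most 7.29% of a list (JunB) and at most 2.48% of an IRF4 list, the place has no meaning. The libraries had between 21127029 tags (IRF4, *Junb*-deficient) and 27399986 tags (JunB). JunB peaks were 151 bp wide with a threshold of 10 tags, and the others 605 or 613 bp with a threshold of 19 tags, which bears on every overlap with JunB.

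All 10 genes had an IRF4 peak in both genotypes, and 9 of 10 had JunB and BATF peaks, the exception being *Stat6*. Over all protein-coding genes, 35.2% had 0 JunB peaks and 51.1% had 0 BATF peaks. For IRF4, 26.0% had 0 peaks in *Junb*-sufficient and 26.7% in *Junb*-deficient cells. *Il12rb2* had 13 JunB, 5 BATF, and 11 IRF4 peaks, and 11 IRF4 peaks in *Junb*-deficient cells. *Il6st* had 11, 4, and 10 peaks of these factors, and 7 IRF4 peaks in *Junb*-deficient cells. *Stat4* had 8 JunB, 7 BATF, and 11 IRF4 peaks, and 9 IRF4 peaks in *Junb*-deficient cells. *Stat3* had 7, 6, 8, and 8 peaks in the same order of libraries, and *Il4ra* 10, 3, 6, and 6. *Il21r* had 6, 1, 4, and 4, *Socs3* 4, 2, 4, and 5, *Socs1* 3, 3, 5, and 6, and *Il6ra* 3, 2, 3, and 7. *Stat6* had 0 JunB and 0 BATF peaks, 2 IRF4 peaks, and 3 IRF4 peaks in *Junb*-deficient cells.

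Across the 10 genes the median was 6.5 JunB peaks, 3 BATF peaks, and 5.5 IRF4 peaks, against medians of 1, 0, and 2 over all protein-coding genes. The 13 JunB peaks of *Il12rb2* were reached by 0.531% of protein-coding genes and the 11 of *Il6st* by 0.935%, while 24.2% of protein-coding genes had as many JunB peaks as *Socs1* or *Il6ra*. Windows were of unequal length, from 100 kb for genes with a single TSS to 136.5 kb for *Il12rb2* and 149.2 kb for *Stat3*, whose 14 annotated TSSs carry its window into *Stat5a* and *Stat5b*. Per 100 kb of window, *Il6st* had 11 JunB peaks, *Il12rb2* 9.52, *Il4ra* 8.91, *Stat4* 6.61, and *Stat3* 4.69. The bar chart of peaks per gene sets these counts beside the medians.

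**Figure D1:**
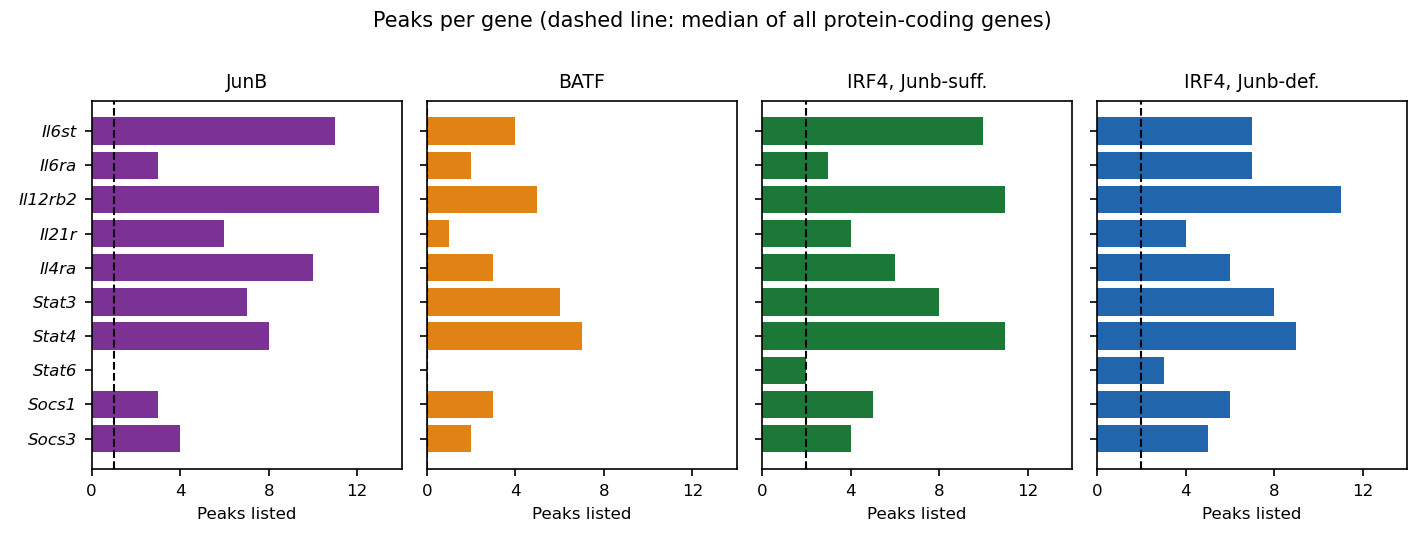
Peaks listed per gene (horizontal axis, number of peaks) for the 10 genes in each of the 4 libraries, with the median of all protein-coding genes as a dashed line. *Stat6* has 0 JunB and 0 BATF peaks, and *Il12rb2* has the longest JunB bar with 13 peaks.

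Of the 59 JunB peaks, 23 (39.0%, exact 95% interval 26.6 to 52.6) lay at sites of all 3 factors, where a BATF peak and an IRF4 peak each overlapped the JunB peak, against 34.1% of JunB peaks within 50 kb of any protein-coding TSS (any annotated TSS of a protein-coding gene) and 30.1% of the whole list. Another 18 (30.5%, 19.2 to 43.9) overlapped IRF4 without BATF, against 14.8% near protein-coding TSSs and 12.7% of the whole list. The 2 JunB peaks with BATF and without IRF4 (3.39%, against 3.3% and 2.87%) lay in *Stat3* and *Il6ra* introns. The remaining 16 (27.1%, 16.4 to 40.3) overlapped neither, against 47.8% and 54.3%. These intervals cover counting error over peaks only, and neighbouring peaks share a locus and are not independent.

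The counts by role of the gene were as follows. At *Stat3* and *Stat4* 10 of 15 JunB peaks (66.7%, 38.4 to 88.2) lay at sites of all 3 factors, 2 of them nearest to *Stat5b*, at the SOCS genes 3 of 7 (42.9%, 9.90 to 81.6), and at the 5 receptor genes 10 of 37 (27.0%, 13.8 to 44.1). The intervals of STAT and receptor genes overlap, and the difference was not tested, because peaks of a locus are not replicates. Seen from IRF4, 41 of 61 peaks (67.2%, 54.0 to 78.7) overlapped a JunB peak, against 38.5% of IRF4 peaks near protein-coding TSSs and 40.3% of all. Of the BATF peaks, 25 of 32 (78.1%) overlapped JunB, against 69.9% and 70.7%, and 30 of 32 (93.8%) overlapped IRF4, against 88.5% and 88.6%. The IRF4 peaks of the 10 genes also stood high in their list, with a median place at 19.1% of the list against 50.2% for IRF4 peaks near protein-coding TSSs, and 18 of 61 stood in the first 10%. IRF4 peaks high in the list nearly always overlapped JunB, in 96.75% of the first 10% of the whole list and in 17 of these 18. Whether place has a part in the share of 67.2% was not tested.

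The map of peak positions shows where these sites lie. Of the 59 JunB peaks, 29 lay in introns, 25 in intergenic sequence, 5 within 1 kb of a protein-coding TSS, and 0 in exons. Of the 61 IRF4 peaks of *Junb*-sufficient cells, 28 were intronic, 24 intergenic, 8 TSS-proximal (13.1%, against 21.5% of IRF4 peaks near protein-coding TSSs), and 1 exonic. Nearness does not assign a peak to a gene. For 12 of 59 JunB peaks and 14 of 61 IRF4 peaks the nearest protein-coding TSS belonged to a gene outside the 10.

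**Figure D2:**
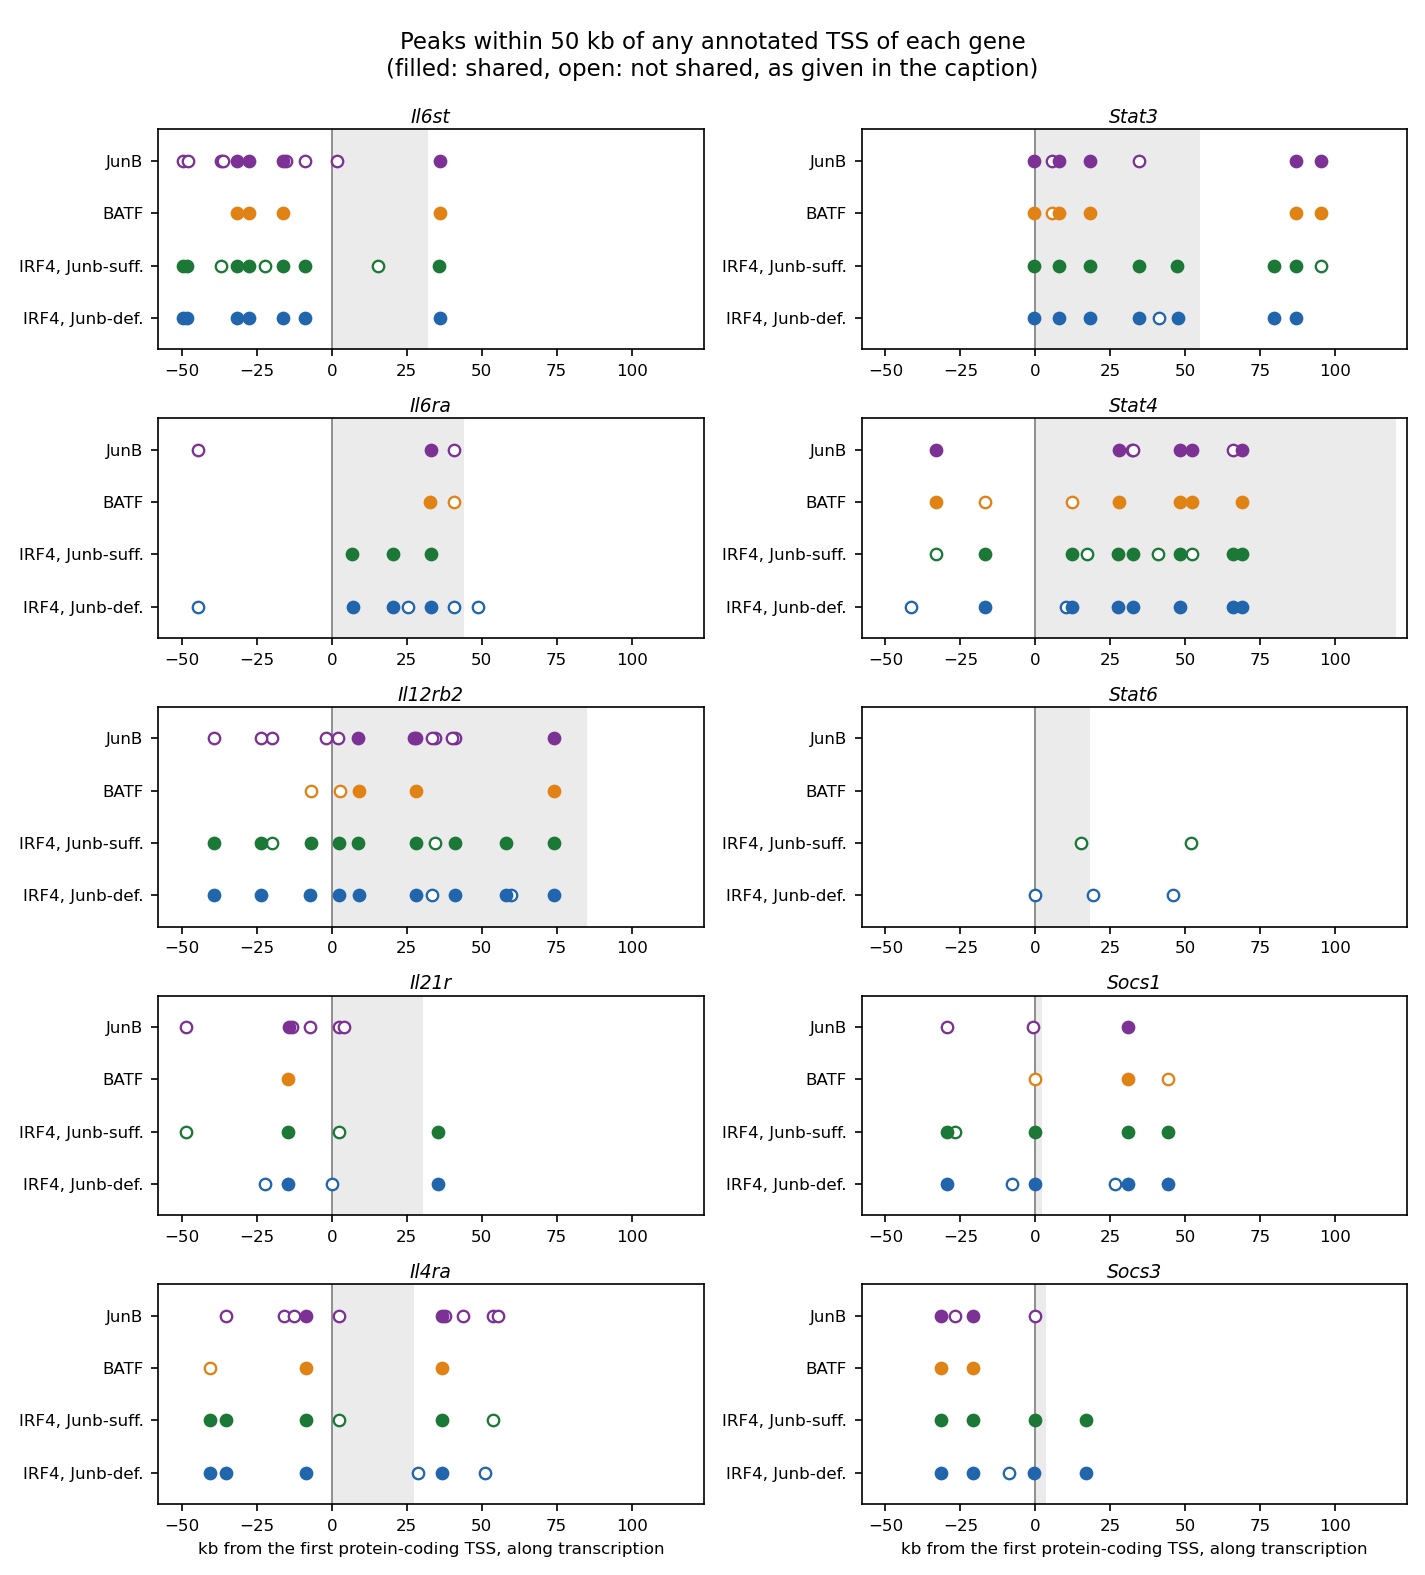
Centres of the peaks around each gene, in kb from its first protein-coding TSS along the direction of transcription (horizontal axis), with 1 row per library and the gene body shaded. A filled JunB or BATF point overlaps both other factors and a filled IRF4 point overlaps an IRF4 peak of the other genotype, so that open IRF4 points stand in 1 genotype alone, as do all 5 points of *Stat6*.

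Distances below are in kb from the first protein-coding TSS of the gene to the peak centre, negative upstream, and coordinates are those of mm9. To show the DNA under the sites the results turn on, the reference sequence of the JunB peak is given on the plus strand, 5′ to 3′, for 9 sites of all 3 factors. Capitals mark matches to the AP-1 consensus TGANTCA or to the AICE consensus (TTTC, any 4 bases and TGANTCA, or GAAA directly before TGANTCA), searched on both strands. An AICE match holds an AP-1 match within it. Of the 23 JunB peaks at sites of all 3 factors, 14 held an AP-1 match within their 151 bp and 2 an AICE match. The AICE site of *Stat3* is shown, and was chosen for the match. The others are highest-listed or most changed sites of their genes, and of these only sites with a match are shown. The highest-listed sites of all 3 factors at *Il12rb2* and *Il21r* held no match in the JunB peak and are left out. The sequences therefore do not show how often such sites hold a match. Sequences were read from the mm9 reference genome. Sites of the receptor genes come first.
*Il6st* at -16.2 kb, chr13:113248927-113249077: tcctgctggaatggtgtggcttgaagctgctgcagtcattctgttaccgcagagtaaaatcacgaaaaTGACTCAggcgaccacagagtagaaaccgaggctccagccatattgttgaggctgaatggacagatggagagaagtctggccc
*Il6ra* at 32.9 kb, chr3:89684086-89684236: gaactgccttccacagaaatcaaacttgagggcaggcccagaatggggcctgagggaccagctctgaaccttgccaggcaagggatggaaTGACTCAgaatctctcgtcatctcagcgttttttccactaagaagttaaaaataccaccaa
*Il4ra* at -8.6 kb, chr7:132687063-132687213: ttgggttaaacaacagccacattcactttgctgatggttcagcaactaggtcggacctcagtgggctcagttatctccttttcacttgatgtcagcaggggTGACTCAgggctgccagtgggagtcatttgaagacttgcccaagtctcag

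The STAT sites follow, of which the *Stat3* site at 95.2 kb and the *Stat4* site at 52.3 kb had no IRF4 peak in the *Junb*-deficient list.
*Stat3* at 18.1 kb, chr11:100782654-100782804: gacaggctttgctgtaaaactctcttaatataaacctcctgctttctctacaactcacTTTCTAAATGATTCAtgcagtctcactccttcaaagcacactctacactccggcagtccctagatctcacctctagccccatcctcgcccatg
*Stat3* at 95.2 kb, chr11:100705545-100705695: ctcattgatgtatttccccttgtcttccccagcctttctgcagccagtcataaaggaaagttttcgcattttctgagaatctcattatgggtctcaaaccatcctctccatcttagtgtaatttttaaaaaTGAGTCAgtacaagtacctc
*Stat4* at 48.4 kb, chr1:52092280-52092430: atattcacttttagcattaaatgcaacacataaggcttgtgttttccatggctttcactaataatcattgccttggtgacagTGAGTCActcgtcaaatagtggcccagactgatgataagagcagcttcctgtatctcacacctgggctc
*Stat4* at 52.3 kb, chr1:52096174-52096324: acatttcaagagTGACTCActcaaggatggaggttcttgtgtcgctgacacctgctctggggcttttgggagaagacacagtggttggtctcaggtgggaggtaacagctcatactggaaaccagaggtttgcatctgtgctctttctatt

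Of the SOCS genes, the *Socs1* site carried 2 AP-1 matches within the JunB peak and the *Socs3* site 1.
*Socs1* at 30.8 kb, chr16:10754777-10754927: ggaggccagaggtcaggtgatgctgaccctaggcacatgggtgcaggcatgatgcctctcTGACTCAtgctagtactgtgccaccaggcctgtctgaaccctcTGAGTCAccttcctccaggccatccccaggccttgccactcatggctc
*Socs3* at -20.9 kb, chr11:117851361-117851511: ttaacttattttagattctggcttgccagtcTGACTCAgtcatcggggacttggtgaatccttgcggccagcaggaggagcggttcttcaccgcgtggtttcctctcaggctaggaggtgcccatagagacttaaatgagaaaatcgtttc

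*Il6st* encodes gp130, the signal-transducing chain shared by the receptors of the IL-6 family. Its leading site lay upstream of the gene, at -16.2 kb (chr13:113248927-113249077). The JunB peak at -16.2 kb stood at place 173 of 29659 in its list, the BATF peak at place 810 of 13570, and the IRF4 peak at place 467 of 31093. In *Junb*-deficient cells the IRF4 peak at this site was listed at place 6233 of 29033, so that it moved from 1.5% to 21.5% of the list. The IRF4 peak at -27.7 kb moved from 6.18% to 14.2%, and that at 35.9 kb from 16.9% to 38.1%. All 3 of these IRF4 peaks, which overlapped both JunB and BATF, stood lower in the *Junb*-deficient list. Of the 3 listed in both genotypes that overlapped JunB without BATF, the peak at -48.2 kb moved from 6.13% to 7.72%, that at -49.6 kb from 7.62% to 7.04%, and that at -8.9 kb from 18.6% to 13.7%.

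Among all IRF4 peaks of the first 10% of the list that had a *Junb*-deficient counterpart, 8.10% moved down at least as far as the *Il6st* peak at -16.2 kb. The IRF4 peak at -36.9 kb, at place 2797 (9.0%) and over a JunB peak without BATF, had no counterpart in *Junb*-deficient cells, where the nearest IRF4 peak had its centre 5.3 kb away. At 2 further sites off JunB, at -22.2 kb and 15.3 kb and low in the list (75.6% and 99.3%), IRF4 was not listed in *Junb*-deficient cells either.

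*Il6ra* encodes the IL-6-binding chain that works with gp130. None of its 3 IRF4 peaks of *Junb*-sufficient cells was missing in *Junb*-deficient cells (0 to 70.8%, against 34.3% near protein-coding TSSs). Of its 7 *Junb*-deficient peaks, 4 were listed there alone (57.1%, 18.4 to 90.1, against 30.2%). Each interval includes the background, and the difference from *Il6st* was not tested. The site of all 3 factors lay in an intron at 32.9 kb (chr3:89684086-89684236), with IRF4 at 5.10% of the *Junb*-sufficient and 5.01% of the *Junb*-deficient list. The intronic peak at 6.6 kb, off JunB, moved from 25.2% to 32.1%. Of the 4 peaks listed in *Junb*-deficient cells alone, the highest stood at place 1700 (5.86%), at 40.8 kb in an intron of *Il6ra*, over a JunB peak (place 9257) and a BATF peak (place 2391) of *Junb*-sufficient cells. The closest IRF4 peak of *Junb*-sufficient cells, the one at 32.9 kb, had its centre 7.9 kb from it. It was 1 of 3 IRF4 peaks of the 10 loci that lay at a JunB peak and were listed in *Junb*-deficient cells alone. Another of the 3 also fell in the *Il6ra* window, at -44.8 kb within *Atp8b2*.

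*Il12rb2* encodes the signalling chain of the IL-12 receptor. Its leading site lay in an intron at 28.0 kb (JunB peak chr6:67298073-67298223), at place 356 of the JunB list, 247 of the BATF list, 279 of the IRF4 list, and 415 of the *Junb*-deficient IRF4 list. It was the highest-listed IRF4 site of the 10 loci and stayed within the first 1.43% of the list without JunB, and no AP-1 or AICE match was found within 100 bp of the JunB peak centre. Other IRF4 peaks of the gene changed place in both directions. The peak at -39.2 kb, over JunB, moved from 12.8% to 44.6%, that at -23.5 kb from 19.0% to 41.9%, and that at 58.2 kb, off JunB, from 44.3% to 70.2%. In the other direction the peak at -7.1 kb, over BATF and not JunB, moved from 52.1% to 25.3%, and that at 2.3 kb from 9.74% to 4.00%, a rise matched by 1.22% of the pairs that started in the same 10% of the list.

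At *Il12rb2*, 2 IRF4 peaks over JunB without BATF had no *Junb*-deficient counterpart, at 34.5 kb (place 6707) and -20.1 kb (place 8366, with an AICE match). Next to the first of these, *Junb*-deficient cells had an IRF4 peak at 33.5 kb, at place 5647 and over a separate JunB peak with an AICE match of its own, that was not listed in *Junb*-sufficient cells. The centres of these 2 IRF4 peaks lay 1046 bp apart, less than the smallest distance between peaks that the peak caller allows within a list (1224 bp and 1210 bp for the 2 IRF4 lists). Whether they are 1 region called at different centres was not tested.

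*Il4ra*, a chain of the IL-4 and IL-13 receptors, and *Il21r*, the IL-21-binding chain, lie in tandem on chromosome 7. The leading *Il4ra* site was intergenic at -8.6 kb (chr7:132687063-132687213), with JunB at place 1172 (3.95%), BATF at 64.1%, and IRF4 at place 3981 (12.8%). In *Junb*-deficient cells IRF4 was still listed there, at place 20435 (70.4%). This fall of 57.6 percentage points was the largest among the 46 IRF4 peaks of the 10 loci listed in both genotypes. Over all IRF4 peaks listed in both genotypes 1.20% fell as far, and 2.75% of those in the same 10% of the list. Between the genes, at -14.5 kb from *Il21r*, a site of all 3 factors kept its IRF4 peak at a similar place (11% and 8.84%). At 35.5 kb from *Il21r* an IRF4 peak off JunB also kept its place (30.8% and 31.7%).

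Missing in *Junb*-deficient cells were the IRF4 peaks in an *Il21r* intron at 2.5 kb (place 3577, 11.5%) and in an *Il4ra* intron at 2.4 kb (place 8588, 27.6%), both over JunB without BATF. At the *Il21r* TSS itself, 2.6 kb from the former, IRF4 was listed in *Junb*-deficient cells alone, at place 4057 (14%). A further JunB peak between the genes, at -13.3 kb from *Il21r* (place 9449), overlapped neither other factor.

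*Stat3*, which carries the signals of IL-6 and IL-21, had IRF4, BATF, and JunB together at its promoter. There the IRF4 peak stood at place 946 of 31093 (3.04%) in *Junb*-sufficient and at place 553 of 29033 (1.90%) in *Junb*-deficient cells. The intronic IRF4 peak at 7.9 kb moved in the same direction, from 7.71% to 2.97%, and 2.81% of pairs in the same 10% of the list moved up as far. At the intronic AICE site at 18.1 kb (chr11:100782654-100782804, TTTCTAAATGATTCA) JunB stood at 7.21%, BATF at 3.6%, and IRF4 at 7.43%, and IRF4 at 11.4% in *Junb*-deficient cells. All 3 sites had an IRF4 peak in both genotypes. Of the *Stat3* peaks listed in both, the one that moved farthest down lay in an intron at 47.4 kb, off JunB, and went from 37.9% to 47.0%. IRF4 was listed in *Junb*-deficient cells alone at an internal TSS at 41.4 kb (23.5%).

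In the *Stat3* window 1 IRF4 peak was missing in *Junb*-deficient cells. It lay at 95.3 kb, in an intron of the neighbouring *Stat5b* (IRF4 peak chr11:100705293-100705905), at place 1970 of 31093 (6.34%), over JunB at place 1464 and BATF at place 1040. It stood highest of the 15 missing IRF4 peaks of the 10 loci. It entered the window through internal TSSs of *Stat3*, and *Stat5b* was nearer. Of all 14 *Stat3* TSSs, 4 belong to protein-coding transcripts. With TSSs of protein-coding transcripts alone, 14 of 58 IRF4 peaks of the 10 loci were missing, and this peak was no longer among them.

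*Stat4*, the transducer of IL-12, had JunB, BATF, and IRF4 together at 5 sites and IRF4 at 11. Its leading site lay in an intron at 48.4 kb (chr1:52092280-52092430), with IRF4 at place 1451 (4.67%) in *Junb*-sufficient and at place 738 (2.54%) in *Junb*-deficient cells. Of 7 IRF4 peaks listed in both genotypes, 6 stood higher in the *Junb*-deficient list, among them the peak at 32.5 kb, which moved from 27.2% to 9.44%. The exception at -16.8 kb, over BATF and not JunB, moved from 55.8% to 94.4%. In an intron at 52.3 kb (JunB peak chr1:52096174-52096324), an IRF4 peak at place 2837 (9.12%) over JunB and BATF had no counterpart in *Junb*-deficient cells, where the nearest IRF4 peak, that of the leading site, had its centre 3.9 kb away. The IRF4 peak at -33.2 kb, over JunB (place 14795) and BATF (place 11591) and low in its list (place 23633, 76.0%), was missing too, as were 2 intronic peaks off JunB at 17.1 kb and 40.8 kb. Among the *Stat4* peaks listed in *Junb*-deficient cells alone, the highest lay in an intron at 10.1 kb (18.8%). A peak caller that requires 4-fold more tags than the surrounding 10 kb makes a peak beside a strong neighbour harder to list, and whether this acted at 52.3 kb was not tested.

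*Stat6*, the transducer of IL-4, had IRF4 peaks alone. Neither of its 2 IRF4 peaks in *Junb*-sufficient cells overlapped any of its 3 peaks in *Junb*-deficient cells. The former lay at 15.3 kb (44.5%), 108 bp from an internal *Stat6* TSS, and at 51.9 kb in an exon of *Tmem194* (89.7%). The latter lay at the first *Stat6* TSS (55.6%), at 19.2 kb in an intron of *Nab2* (31.8%), and at 45.9 kb in *Tmem194* (88.8%). Each genotype thus had an IRF4 peak near a *Stat6* TSS, at different TSSs. The places of these peaks ran from 31.8% to 89.7% of the lists, and 60.4% of protein-coding genes had at least 2 IRF4 peaks.

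*Socs1* and *Socs3* encode inhibitors that act on Janus kinases and on receptor chains such as gp130. At the *Socs1* TSS IRF4 overlapped BATF and stood at place 1937 (6.23%) in *Junb*-sufficient and at place 953 (3.28%) in *Junb*-deficient cells, and the nearest JunB peak, at -0.9 kb, overlapped neither factor. The *Socs1* site of all 3 factors lay downstream at 30.8 kb (chr16:10754777-10754927), with JunB at 9.33%. The IRF4 peak there moved from 17.9% to 37.4%. An AICE match lay within 100 bp of its centre in both IRF4 lists, and the JunB peak did not contain that match. The missing IRF4 peak of *Socs1*, at -26.8 kb (23.4%), was off JunB, as was the highest of its peaks listed in *Junb*-deficient cells alone, at 26.5 kb (25.5%). *Socs3* had IRF4 and JunB at its own TSS (IRF4 26.0% and 18.2% of the 2 lists), and its leading site, at -20.9 kb (chr11:117851361-117851511), lay in an intron of *Pgs1*, with IRF4 at 6.06% and 11.2%. None of the 4 IRF4 peaks of *Socs3* was missing in *Junb*-deficient cells, and its 1 added peak there, at -8.8 kb, stood at place 29012 of 29033.

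Over the 10 loci, 15 of 61 IRF4 peaks (24.6%, 14.5 to 37.3) had no *Junb*-deficient counterpart, against 34.3% of IRF4 peaks near protein-coding TSSs and 35% of all. If the BATF and IRF4 libraries were exchanged, as the antibody labels have it, the share was 12.5% (4 of 32), against 24.9% near protein-coding TSSs. Among the 41 that overlapped JunB, 8 were missing (19.5%, 8.82 to 34.9), against 23.4% and 23.8%. Off JunB 7 of 20 were missing (35.0%, 15.4 to 59.2), against 41.1% and 42.5%. Each of the shares without exchange has the background within its interval. These backgrounds are not matched for place. The IRF4 peaks of the 10 loci had a median place of 19.1% against 50.2% near protein-coding TSSs, and peaks high in the list recurred more often. A lower share than the background therefore does not show that IRF4 peaks of the 10 loci were kept more often than peaks of equal place, which was not tested. In the first 10% of the list, where 94.95% of all IRF4 peaks recurred, 3 of the 18 peaks of the 10 loci were missing, those at 95.3 kb in the *Stat3* window, 52.3 kb in *Stat4*, and -36.9 kb from *Il6st*. Each overlapped JunB, as did 17 of the 18.

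JunB sites with and without BATF were counted apart. Of 24 IRF4 peaks over both JunB and BATF 3 were missing (12.5%, 2.66 to 32.4), against 16% near protein-coding TSSs and 16.4% of all, and these 3 lay in the *Stat3* and *Stat4* windows. Of 17 over JunB without BATF 5 were missing (29.4%, 10.3 to 56.0), against 41.7% and 42.5%, and these 5 lay at the receptor genes *Il6st*, *Il12rb2*, *Il21r*, and *Il4ra*. At the receptor genes 0 of 11 IRF4 peaks over JunB and BATF and 5 of 12 over JunB without BATF were missing. The intervals of these shares, 0 to 28.5% and 15.2 to 72.3%, overlap.

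Conversely, 17 of the 63 *Junb*-deficient IRF4 peaks (27.0%, 16.6 to 39.7) had no *Junb*-sufficient counterpart, against 30.2% near protein-coding TSSs and 30.4% of all. With the BATF and IRF4 libraries exchanged the share was 55.6%, against 66.5% near protein-coding TSSs. Those at a JunB peak numbered 3 of 36 (8.33%, 1.75 to 22.5), against 7.63% and 7.44%, and those off JunB 14 of 27 (51.9%, 31.9 to 71.3), against 41.6% and 42.7%. Of the 17, 13 stood in the first 50% of the list, as did 53 of all 63 *Junb*-deficient IRF4 peaks of the 10 loci.

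**Figure D3:**
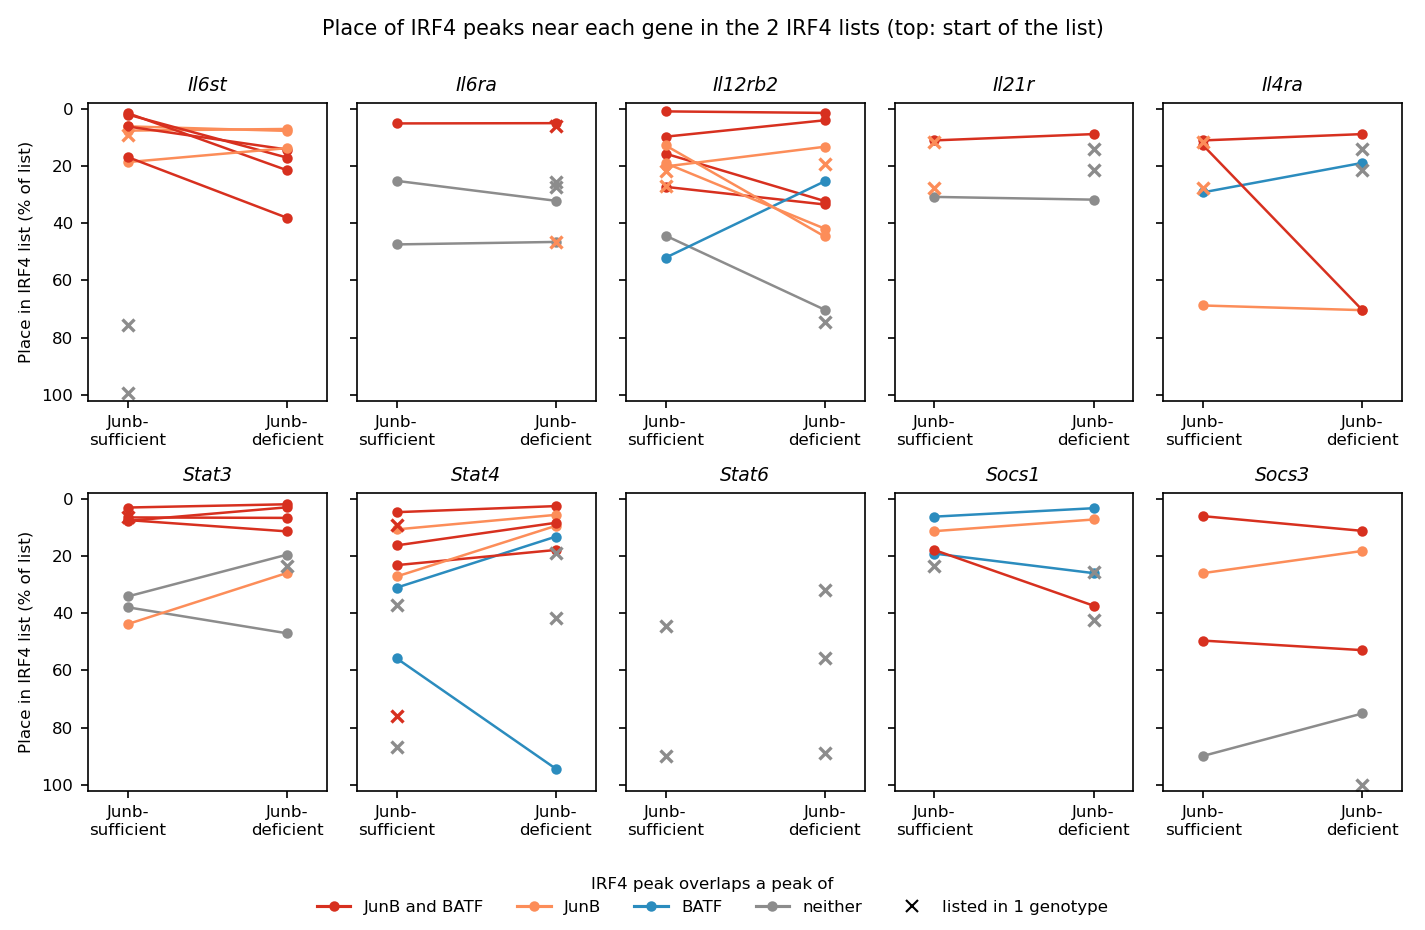
Place of each IRF4 peak near the 10 genes as a percent of its list (vertical axis, 0 at the start of the list) in *Junb*-sufficient and *Junb*-deficient cells. Lines join peaks listed in both genotypes, crosses mark peaks listed in 1, and colours give the factors the peak overlaps, with the *Il4ra* line from 12.8% to 70.4% as the steepest fall.

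The plot of IRF4 places also shows the 46 peaks listed in both genotypes as a whole. Of these, 23 stood lower and 23 higher in the *Junb*-deficient list, with a median change of 0.036 percentage points. Of all 20218 IRF4 peaks listed in both genotypes, 51.4% stood lower, with a median change of 0.30 percentage points. Among the 33 of the 46 that overlapped JunB, 17 stood lower, with a median change of 0.17 percentage points. Of all IRF4 peaks that overlapped JunB and were listed in both genotypes, 61.0% stood lower, with a median of 2.20 percentage points. Whether these shares differ was not tested. Among genes with at least 7 such peaks, 5 of 7 stood lower at *Il6st*, 6 of 9 at *Il12rb2*, 3 of 7 at *Stat3*, and 1 of 7 at *Stat4*. Peaks of a locus are not independent, and differences between genes were not tested. All changes of place are shifts relative to the other peaks of each list and not changes in binding. Of the 46 peaks, 9 moved by less than 2 percentage points.

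The AP-1 consensus was found within 100 bp of the centre of 31 of 59 JunB peaks (52.5%, 39.1 to 65.7), against 31.0% of the whole JunB list and 5.84% of windows 5 kb downstream of JunB peaks. Where JunB overlapped both BATF and IRF4, 16 of 23 held it (69.6%, 47.1 to 86.8), against 50.1% of such peaks in the whole list. Where JunB overlapped neither, 9 of 16 held it (56.2%, 29.9 to 80.3), against 17.7%. The AICE consensus was found at 5 of 59 JunB peaks (8.47%, 2.81 to 18.7), against 2.59% of the list and 0.133% of downstream windows. Of these, 4 are described here, in *Stat3* at 18.1 kb, in *Il12rb2* at 33.5 kb, upstream of *Il12rb2* at -20.1 kb, and between *Il4ra* and *Il21r* at -13.3 kb from *Il21r*. They did not share a pattern of IRF4 binding. IRF4 was listed in both genotypes at 18.1 kb, in *Junb*-deficient cells alone at 33.5 kb, in *Junb*-sufficient cells alone at -20.1 kb, and in neither at -13.3 kb.

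Among IRF4 peaks over JunB, AP-1 matches were found in 5 of the 8 that were missing in *Junb*-deficient cells and in 15 of the 33 that were listed in both (62.5%, 24.5 to 91.5, and 45.5%, 28.1 to 63.6). The intervals overlap, and the difference was not tested. The same shares were not computed for the whole IRF4 list, so these counts have no background. The ETS-IRF composite consensus (GGAA, any 2 bases and GAAA), at which IRF4 binds beside an ETS factor, was found at 0 of 59 JunB peaks, which allows a share of up to 6.06% by the exact interval, against 2.73% of the list. It was found at 2 of 61 *Junb*-sufficient IRF4 peaks (3.28%, 0.40 to 11.4), against 3.74%, and at 5 of 63 *Junb*-deficient ones (7.94%, 2.63 to 17.6), against 3.67%, each background within the interval. A match is a run of letters and not evidence of binding.

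**Figure D4:**
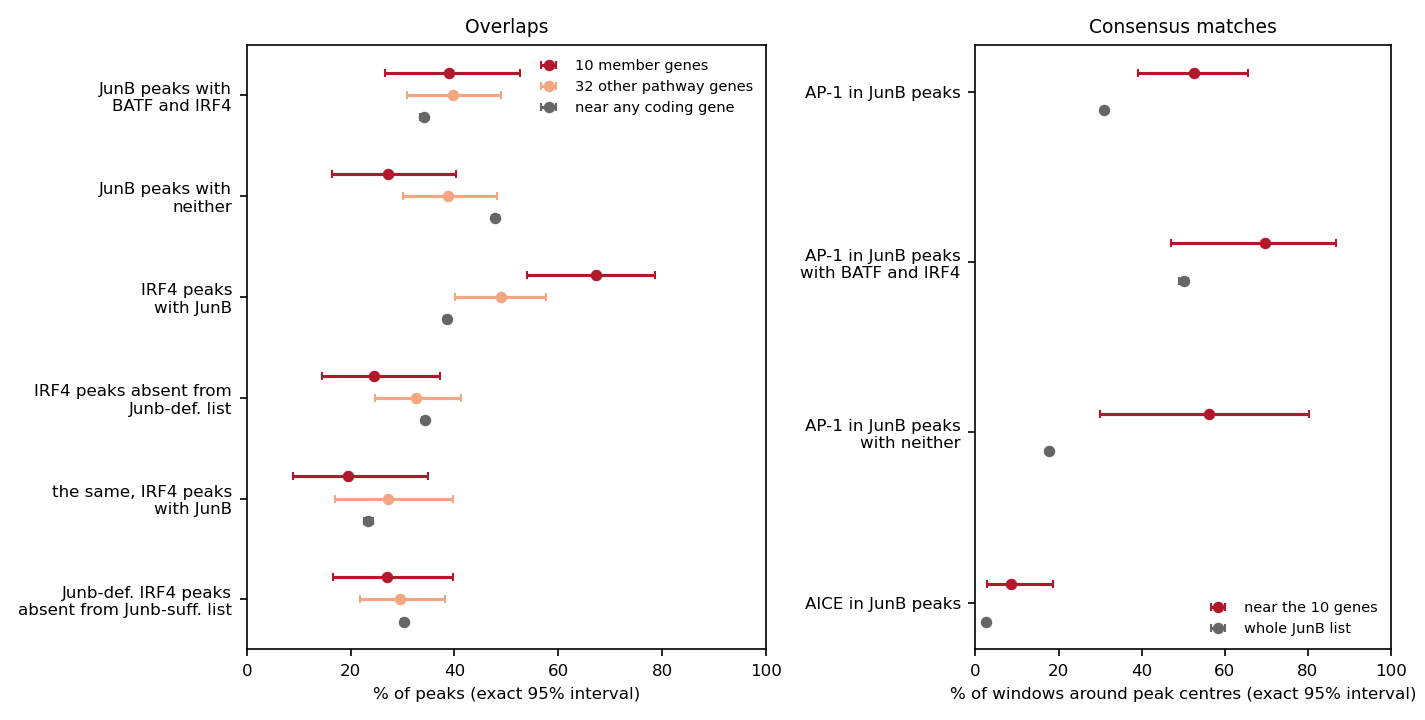
Shares of peaks (left, percent of peaks) and of windows with a consensus match (right, percent of windows reaching 100 bp either side of the peak centre) for the 10 genes, with 32 other genes of the pathway and the background, as points with exact 95% intervals. The share of IRF4 peaks that overlap JunB is 67.2% at the 10 genes against 38.5% near protein-coding TSSs. The shares missing in *Junb*-deficient cells have intervals that include the background, which is not matched for place in the list.

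The 32 other receptor, Janus kinase, STAT, and SOCS genes of the pathway had medians of 3.5 JunB, 2 BATF, and 4.5 IRF4 peaks. JunB peaks were found at 26 of the 32, while 35.2% of all protein-coding genes had 0. Sites of all 3 factors were found at 24 of the 32 genes, and no peak of any library at 2 (*Osmr* and *Lifr*). Outside the windows of the 10 genes, 48 of their 121 JunB peaks (39.7%, 30.9 to 49.0) overlapped both BATF and IRF4, 21 (17.4%, 11.1 to 25.3) IRF4 without BATF, and 47 (38.8%, 30.1 to 48.1) neither, and 66 of their 135 IRF4 peaks (48.9%, 40.2 to 57.6) overlapped JunB, with no test against the 10 genes. Their IRF4 peaks were missing in *Junb*-deficient cells in 44 of 135 cases (32.6%, 24.8 to 41.2), and those over JunB in 18 of 66 (27.3%, 17.0 to 39.6).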

How the data were processed

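ChIP-seq peak lists of 4 libraries, 1 per condition, were used. The authors aligned reads with a unique position to mm9 with Bowtie2 and called peaks with HOMER (version 4.8 in the submitters' processing notes) in each library by itself, at a false discovery rate of 0.001 and 4-fold over the local 10000 bp, with no control library in the recorded command. The deposited score is 1 for every peak and was not used. Libraries were grouped by their titles. Peaks were read 1-based, shared peaks overlapped by at least 1 bp, and TSSs and introns were those of GENCODE for mm9. Exact (Clopper-Pearson) 95% intervals count peaks. Per gene, the peaks described are the highest-listed IRF4 peak, the highest-listed JunB peak of all 3 factors, the highest-listed missing IRF4 peak over JunB, the IRF4 peak that moved farthest down, and the highest-listed IRF4 peak of *Junb*-deficient cells alone. Others named were chosen after their values were seen. The 10 genes, the 32 other genes, and the rules were chosen with earlier results of these data known. Overlap, distance, and consensus rules were tested on simulated peaks. Python 3.11.15, NumPy 2.4.6, SciPy 1.17.1, and matplotlib 3.10.9 were used. Expression data and other ChIP replicates of the study were not analysed here, and 1 site is not reported individually here.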

Additional observations from a re-analysis of the deposited data

How the results depend on the processing

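Of 58 values under alternative settings, 49 stayed within the interval of the reported share or within 1.5 times the reported count, 9 moved and 0 reversed. Narrowing the window to 20 kb left 32 JunB, 15 BATF, 30 *Junb*-sufficient IRF4, and 32 *Junb*-deficient IRF4 peaks, and widening it to 100 kb gave 92 JunB and 96 *Junb*-sufficient IRF4 peaks. Exchanging the BATF and IRF4 libraries, as the antibody field has it, gave 12.5% of peaks without a *Junb*-deficient counterpart and 55.6% of *Junb*-deficient peaks without a *Junb*-sufficient one. Within 50 bp of the peak centre, 39.0% of JunB peaks held the AP-1 consensus, against 52.5% within 100 bp. The share of the whole JunB list was not computed for the narrower window, so the 39.0% has no background. Widened JunB peaks, a cut of only the *Junb*-sufficient IRF4 list at 50%, and the middle of a run in place of the place were added after seeing the data. No paired analysis was possible because each condition had 1 library. The lists give no tags per peak, so a peak not listed in 1 genotype may lie just under the threshold there, and its depth could not be examined.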
